A study of Mus musculus with 2 samples.

Results

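Eosinophil granule positive cells were taken from the single-cell RNA library of retinoic acid treated PLZF/RARA leukemic bone marrow. The rule asked for at least 2 of the granule genes Prg2, Prg3, Epx, Ear1, Ear2 and Ear6 to be detected in a cell, with their summed level at 300 CPM or more in that cell. A UMI (unique molecular identifier) marks 1 captured RNA molecule, and CPM is the percent of a cell's or a group's UMIs times 10000. Of 7416 barcodes in the library, 6650 had at least 1000 UMIs, at least 500 genes and 0.1 to 10% mitochondrial UMIs and were kept as cells. The rule was met by 54 of them, called members here, and 6596 kept cells served as the comparison. The same rule was met by 183 of 5332 kept cells in the vehicle library, and 11982 cells were kept over the whole series.

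The study sequenced late promyelocytes of mice, sorted from leukemic bone marrow as positive for Cd45.2, c-Kit, Gr1 and the Fcγ receptor and negative for Cd34. All cells, the vehicle cells included, came from progenitors transformed by PLZF/RARA, the fusion of a zinc finger protein (gene Zbtb16) with the retinoic acid receptor alpha (gene Rara) that drives a form of acute promyelocytic leukemia poorly sensitive to retinoic acid. One group was injected intraperitoneally with 0.8 to 1 mg of retinoic acid and the other with corn oil holding 10% DMSO, in both cases over 7 days. Each group held 1 library loaded for 6000 cells, from a cohort of 3 to 5 mice, and how many mice gave cells to a library is not given in the sources used here. The age of the mice and the promoter behind the fusion are likewise not given there.

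Eosinophils are granulocytes whose granules store basic proteins, a peroxidase and ribonucleases, and transcripts for these products are abundant while the granules form in bone marrow precursors and scarce in mature blood eosinophils. The eosinophil lineage is known to need the transcription factor GATA1, together with members of the C/EBP family and a balanced dose of PU.1 (gene Spi1). Neutrophil promyelocytes fill their primary granules with elastase, proteinase 3 and cathepsin G, and later stages fill secondary granules with products such as the cathelicidin gene Camp.

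The sequences upstream of Prg3 and Epx are printed because both genes define the members and because the GATA factor genes Gata1 and Gata2 were among those higher in them. Both are RefSeq sequences on GRCm38.p6 that run 5′ to 3′ on the gene's strand and end at the base before the transcript start. The Prg3 stretch is chr2:84987965-84988214 on the plus strand and the Epx stretch is chr11:87875537-87875786 on the minus strand. Capitals mark a match to a GATA word on either strand, where the words searched were AGATAA with its variant AGATAG, and TGATAA with its variant TGATAG.
Prg3: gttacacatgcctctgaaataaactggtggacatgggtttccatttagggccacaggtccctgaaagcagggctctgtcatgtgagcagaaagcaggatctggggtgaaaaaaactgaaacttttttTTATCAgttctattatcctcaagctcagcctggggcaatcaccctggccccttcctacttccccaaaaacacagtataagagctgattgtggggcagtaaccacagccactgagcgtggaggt
Epx: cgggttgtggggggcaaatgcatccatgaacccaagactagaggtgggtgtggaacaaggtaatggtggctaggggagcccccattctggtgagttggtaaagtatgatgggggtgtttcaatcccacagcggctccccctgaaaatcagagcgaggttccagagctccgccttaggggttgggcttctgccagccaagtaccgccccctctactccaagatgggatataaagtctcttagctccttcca
The word search covered 300-base windows, which also hold the 50 bases after the start, and overlapping matches were counted. The Prg3 window held 1 word, TTATCA, whose first base is base 128 of the window. The windows of Epx, Ear1, Ear2 and Ear6 held 0, and 5 of the 6 rule genes had a window (Prg2 had no entry). Of 32817 promoter windows in the table, 9773 (29.8%) held such a word, so a word in 1 of 5 windows is a description only.

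Counts over all members were summed and expressed in CPM. Their ratio to the summed other cells is given as a log2 value, for which 0.5 counts were added to both sums. Intervals in brackets are 95% limits for counting error alone, exact except for differences between shares. Variation between animals or between preparations is not in them. For ratios of summed counts, variation between cells is left out too, so a few cells can move a ratio far past its interval. With 1 library per group no test was possible, so no p-value is given and "higher" and "lower" describe these libraries. The members held 400494 UMIs in all, and a sum of 0 in them allows up to 3 counts, or 7.49 CPM. Members were shallow: their median was 4718 UMIs (1092 to 38017) and 1881 genes, against 14894.5 UMIs and 3502.5 genes in the other cells. The median mitochondrial share was 1.33% in members and 1.30% in the others. The 2 libraries shared 11 barcodes, none of which belonged to a member. No doublet caller was run, and an alternative without the deepest 5% of cells kept 53 members.

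The rule genes are given as a description, because they chose the cells. Prg2 (ENSMUSG00000027073, GRCm38 chromosome 2, 84980461 to 84983632, plus strand), which encodes major basic protein, had 2105 UMIs in 41 of 54 members and a level of 5256 CPM. Epx (ENSMUSG00000052234, chromosome 11, 87864000 to 87875536, minus strand), which encodes eosinophil peroxidase, had 527 UMIs in 49 members (1316 CPM). Prg3 (ENSMUSG00000027072, chromosome 2, 84988215 to 84993886, plus strand), the neighbour of Prg2 that encodes a second major basic protein, had 249 UMIs in 31 members (622 CPM). These 3 were the most abundant rule genes and were found in 31 to 49 members, but their levels rested largely on 1 cell, without which Prg2 stood at 1678 CPM, Epx at 776 and Prg3 at 403. Ear6 (ENSMUSG00000062148, chromosome 14, 51853699 to 51854643, plus strand), an eosinophil-associated ribonuclease gene, had 95 UMIs in 33 members (237 CPM). Ear1 and Ear2 had 0 UMIs in all members. The Ear genes are near-identical copies, so reads of one could have been lost or assigned to another in the authors' counting, and the zeros are uncertain for that reason.

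In the other retinoic acid cells Prg2 stood at 1.33 CPM, Epx at 1.09, Ear6 at 0.539 and Prg3 at 0.202. A Prg2 UMI was found in 1.71% of those cells and an Epx UMI in 1.33%, although they were more than 3 times as deep as the members by median UMIs. Whether these UMIs mark free RNA or low expression was not tested. Among members, 20 had 2 of the rule genes, 22 had 3 and 12 had 4. Their summed share ran from 306 to 128379 CPM with a median of 1850, and 26 members reached 2000, 9 reached 10000 and 4 reached 50000. One cell alone held 1456 of the 2105 Prg2 UMIs (69.2%) and 227 of the 527 Epx UMIs. Just inside the limit lay members with 306, 328 and 332 CPM, and just outside lay cells with at least 2 genes and 274, 266 and 242 CPM. In all, 22 cells with at least 2 genes fell short of 300 CPM, and 20 cells passed 300 CPM with 1 gene only, the highest at 2522.

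**Figure D1:**
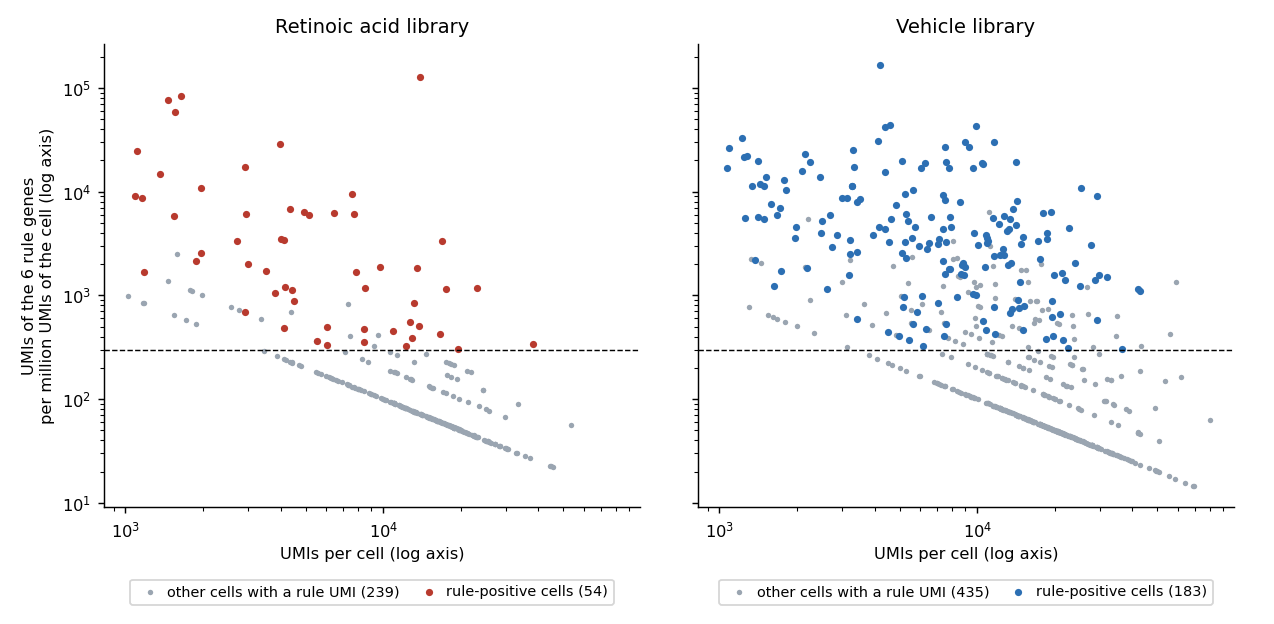
Summed level of the 6 rule genes in a cell in CPM (vertical, log axis) against the UMIs of the cell (horizontal, log axis) for the retinoic acid library on the left and the vehicle library on the right. Each point is 1 kept cell with at least 1 rule UMI, coloured points are the 54 and 183 cells that pass the rule, and the dashed line is 300 CPM; members above 10000 CPM lie mostly among shallow cells, with 1 deeper cell at 128379 CPM.

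To read each granule gene in cells it did not choose, a looser rule left 1 gene out. It asked for at least 2 UMIs summed over the other 5 genes, which 1 gene could supply, at 300 CPM or more. Cells chosen by the other 5 genes held the left-out gene far more often than the rest of the library, although the rest was deeper. Epx was found in 38 of 51 cells chosen without it (74.5%, 60.4 to 85.7) and in 1.50% of the others. Prg2 was found in 30 of 53 (56.6%, 42.3 to 70.2) against 1.88%, Prg3 in 28 of 64 (43.8%, 31.4 to 56.7) against 0.319%, and Ear6 in 24 of 56 (42.9%, 29.7 to 56.8) against 0.819%. The median depth of the chosen cells was 4020 to 4400 UMIs in these 4 cases and that of the others at least 14895.

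The members made up 0.812% of kept retinoic acid cells (0.611 to 1.06) and the same rule found 3.43% in the vehicle library (2.96 to 3.96). The rule depends on depth, so both libraries were also thinned to 5000 UMIs per cell. The shares were then 24 of 6248 (0.384%) and 106 of 5146 (2.06%), which left out 28 of the members and 60 of the vehicle cells as too shallow. Thinning to 2000 UMIs, an alternative added after the data were seen, gave 0.366% and 2.01%. The share in the vehicle library was higher under each of these depths, but with 1 library per group treatment, mice and preparation cannot be told apart. Among barcodes left out by the cell limits, 19 of 766 met the rule in the retinoic acid library (2.48%) and 13 of 454 in the vehicle library (2.86%).

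Against the other retinoic acid cells, the members carried more of many genes outside the rule, with the largest ratios for Hdc, Gata1, Ikzf2, Stx3 and Ldhc, and less of most neutrophil primary granule genes. A level of 20 CPM in one of the sums was reached by 5871 genes, of which 575 (9.79%) were at least 2-fold higher and 159 (2.71%) at least 2-fold lower in members. For 102 genes above (1.74%) and 10 below (0.17%) the whole counting interval was past 2-fold. Genes at 20 CPM in members alone are in these counts, and such genes lean toward higher by the limit itself. Over these 5871 genes the log2 ratio had a median of 0.14, and centring on it gave 395 higher and 231 lower genes, so the lean toward higher genes depended partly on the scaling. The genes named next are the 12 with the largest and the 12 with the smallest ratio among genes at 50 CPM or more, and members of the gene lists.

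Hdc (ENSMUSG00000027360, chromosome 2, 126593667 to 126619299, minus strand) encodes histidine decarboxylase, the enzyme that makes histamine. It had 0 to 7 UMIs per member, 42 in all, in 20 of 54 cells. Its level was 105 CPM in members and 1.32 CPM in the other cells, a log2 ratio of 6.32 (5.78 to 6.82). Gata1 (ENSMUSG00000031162, chromosome X, 7959260 to 7978071, minus strand), the transcription factor of the eosinophil, mast cell, erythroid and megakaryocyte lineages, had 0 to 2 UMIs per member, 21 in all, in 18 cells. Its level was 52.4 CPM against 0.934, a log2 ratio of 5.84 (5.06 to 6.50). Its relative Gata2, which acts in progenitors, mast cells and basophils, had 14 UMIs in 8 members, 5 of them in 1 cell (log2 ratio 5.14, 4.18 to 5.91). Zfpm1, which encodes the GATA cofactor FOG1, had 7 UMIs in 7 members and a log2 ratio of 2.60 (1.18 to 3.56).

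Arsb, the lysosomal arylsulfatase B, was found in more members than any other of the 12 genes with the largest ratios. It lies on chromosome 13 (93771630 to 93943016, plus strand, ENSMUSG00000042082). Members held 0 to 24 Arsb UMIs with a median of 6, and 51 of 54 held at least 1, while the other cells had a median of 1 UMI at greater depth. The level was 896 CPM against 90.7, a log2 ratio of 3.31 (3.15 to 3.46). Papss2, which makes the sulfate donor used to sulfate proteoglycans, had a log2 ratio of 2.51 (2.04 to 2.92), and Ctsh, a lysosomal cysteine protease, one of 3.05 (2.69 to 3.37).

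Ikzf2, which encodes the zinc finger factor Helios, had 33 UMIs in 21 members and a log2 ratio of 4.81 (4.22 to 5.31). Stx3, a syntaxin of membrane fusion, had 49 UMIs in 25 members (4.71, 4.24 to 5.13). Ldhc, a lactate dehydrogenase best known from testis, had 71 UMIs in 22 members (4.41, 4.03 to 4.75). Each of these 3 genes was at 0 in more than 28 of the 54 members, so none of them was held by most members. Cyp11a1, the side-chain cleavage enzyme that opens steroid synthesis, had 65 UMIs in 21 members, 21 of them in the cell with the most rule UMIs (3.50, and 2.99 without that cell). Cdkn2a, the locus of the cell cycle inhibitors p16 and ARF, had a log2 ratio of 3.15, the transcription factor gene Tcf7 one of 2.90 and Oaf one of 2.71.

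Because single genes were sparse, the first 5 of these genes (Hdc, Gata1, Ikzf2, Stx3 and Ldhc) were also counted per cell. At least 1 of them was found in 46 of 54 members (85.2%) and in 17.9% of the other cells, and at least 2 in 33 members (61.1%) and in 3.11% of the others. With every cell thinned to 2000 UMIs, at least 1 was found in 27 of 42 members (64.3%, 48.0 to 78.4) and in 227 of 6511 other cells (3.49%). The 12 members below 2000 UMIs were left out of that count. These 5 genes were picked for their ratios in the same cells, so the shares describe how the transcripts are spread over cells and add no support.

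**Figure D2:**
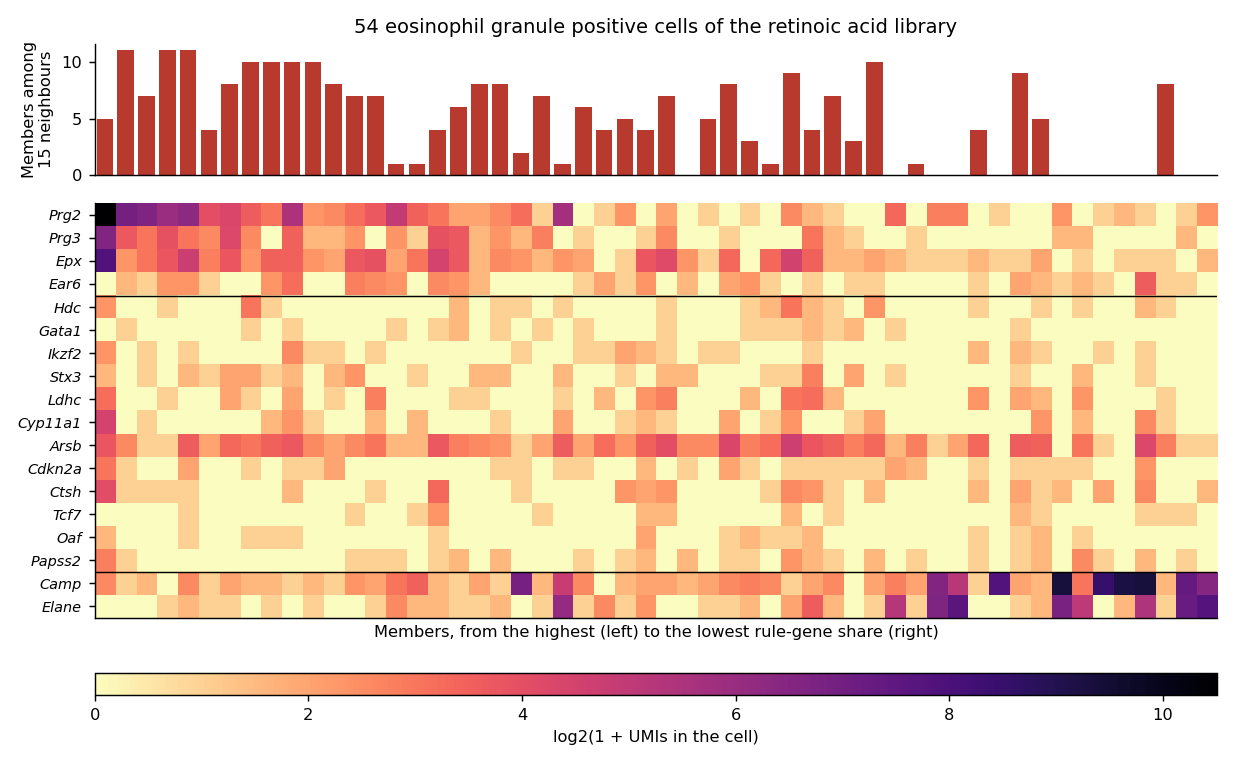
Each column is 1 of the 54 members, ordered from the highest share of rule UMIs on the left to the lowest on the right. The bars give how many of the 15 nearest neighbours of a member are members, and the colours give log2(1 + UMIs) for 4 rule genes, the 12 genes with the largest ratios, Camp and Elane; high Camp and Elane counts lie mostly toward the right, where bars are absent.

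**Figure D3:**
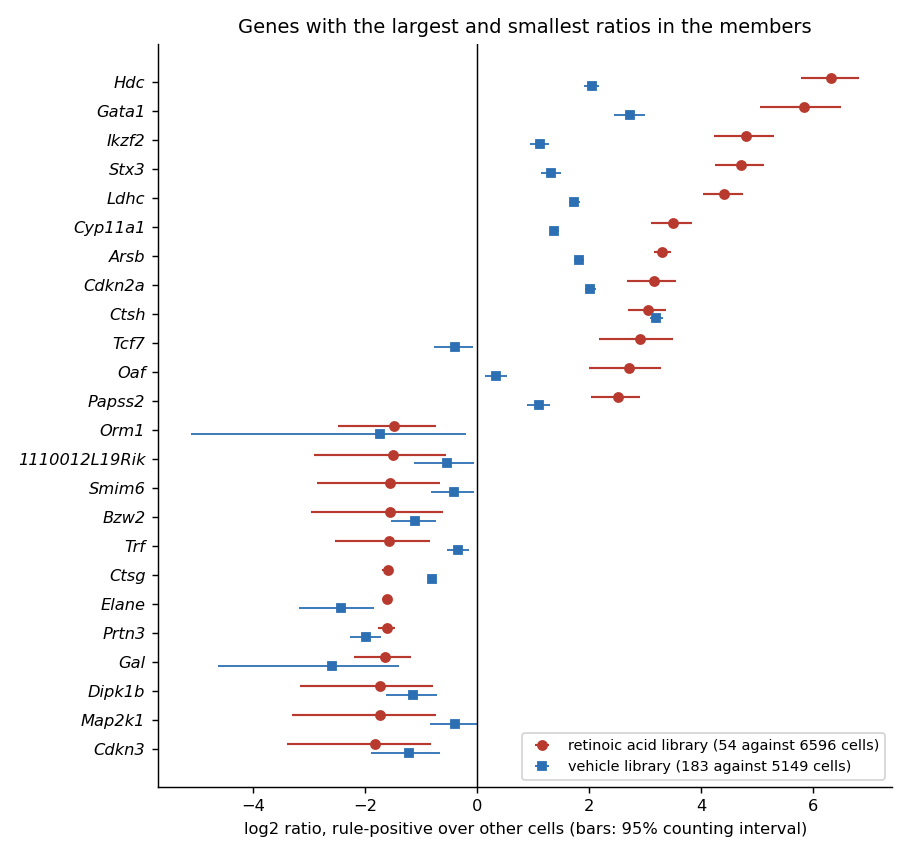
Log2 ratio of rule-positive to other cells for the 12 genes with the largest and the 12 with the smallest ratios in members, with 95% counting intervals as bars. Circles are the retinoic acid library and squares the vehicle library; 10 of the 12 upper genes are also at least 2-fold higher in the vehicle library, and all 12 lower genes lie below 0 in it.

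Of the 16 granulocyte lineage regulators listed, 14 reached 20 CPM in either sum, of which 4 were at least 2-fold higher and 0 lower, beside 9.79% and 2.71% of all genes. Gata1 and Ikzf2 reached 20 CPM in members alone, with 0.934 and 2.99 CPM in the other cells. The limit itself thus fixed that they counted as higher, and the count of 4 is a description only. The 4 were Gata1, Gata2, Ikzf2 and Trib1, which encodes a pseudokinase that lowers C/EBPα (log2 ratio 2.06, 0.92 to 2.88). Cebpe, the C/EBP factor of late granulocyte stages, stood at 569 CPM in members and 356 in the others (0.68, 0.48 to 0.86). Spi1 stood lower, at 145 CPM against 292 (−0.997, −1.41 to −0.64), with UMIs in 22 of 54 members and in 94.7% of the deeper other cells. The summed list, in which abundant genes weigh most, had a log2 ratio of 0.12 (0.01 to 0.23), which became −0.02 when centred on the median of all genes.

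Genes of the mature eosinophil surface were mostly at or near 0 in the members. Il5ra, the interleukin 5 receptor chain that defines committed eosinophil precursors, had 0 UMIs, as did Siglecf, Ear10 and Ear14. Ccr3, the eotaxin receptor, had 3 UMIs in 3 members against 5 UMIs in all other cells (log2 ratio 7.37, 4.59 to 9.64), and Alox15 had 1. Adgre1, which encodes F4/80, had 10 UMIs in 8 members (2.37, 1.23 to 3.19). The common beta receptor chain gene Csf2rb stood at 205 CPM against 124 (0.73, 0.39 to 1.03), while Csf2ra had 3 UMIs (−1.84, −4.34 to −0.52). Of 14 listed eosinophil genes outside the rule that have a row, 4 reached 20 CPM, 1 of them at least 2-fold higher and 1 at least 2-fold lower (9.79% and 2.71% of all genes), and the summed list had a log2 ratio of 0.48 (0.20 to 0.73). The label therefore rests on granule transcripts, with 4 of the 6 markers detected. The receptors Il5ra and Siglecf were not detected in members, where a sum of 0 allows up to 7.49 CPM.

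The neutrophil primary granule genes were lower in members as a group. Of 6 listed genes at 20 CPM, 4 were at least 2-fold lower and 0 higher, and all 4 had intervals wholly past 2-fold, against 0.17% of all genes. Elane, the neutrophil elastase gene, had a median of 1 UMI per member (0 to 213) and of 98.5 UMIs per other cell (0 to 984). Its level was 2507 CPM against 7632, a log2 ratio of −1.61 (−1.70 to −1.52). Prtn3, which encodes proteinase 3, stood at −1.61 (−1.76 to −1.47), Ctsg, cathepsin G, at −1.60 (−1.70 to −1.50) and Ms4a3, a marker of granulocyte and monocyte progenitors, at −1.16 (−1.31 to −1.01). Calr, the chaperone calreticulin that the list also holds, went the other way, at 1436 CPM against 823 (0.80, 0.68 to 0.92). Another of the 6 genes was less than 2-fold apart. The summed list stood at −1.29 (−1.34 to −1.24). Most Elane UMIs of the members (878 of 1004) lay in 12 cells, and without those cells the list stood at −2.24. Elane, Prtn3 and Ctsg were also among the 12 genes with the smallest ratios. The others were low in UMIs apart from Gal, the galanin gene, which had 33 UMIs in 16 members and a level of 82.4 CPM against 262 (−1.65, −2.21 to −1.18). They were Cdkn3 (−1.83), a phosphatase of the cell cycle, the kinase gene Map2k1 (−1.74), Dipk1b, Trf (transferrin), Bzw2, Smim6, 1110012L19Rik and Orm1 (−1.48), each with 6 to 13 UMIs in members.

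Among the secondary granule and maturation genes 18 reached 20 CPM, of which 5 were at least 2-fold lower and 1 higher, beside 2.71% and 9.79% of all genes. Camp had a median of 3 UMIs per member (0 to 652) and of 145 per other cell, and levels of 7758 and 18019 CPM (−1.22, −1.27 to −1.17). Hp, haptoglobin, stood at −1.40 (−1.64 to −1.19), Ngp, a neutrophil granule protein gene, at −0.87 and the alarmin gene S100a8 at −0.73. The member of the list that went the other way was Anxa1, the annexin A1 gene, at 277 CPM against 53.4 (2.38, 2.09 to 2.65). At 5000 UMIs per cell the list took a median 0.43% of the UMIs of 26 members (0.06 to 36.34) and 3.75% of the other cells, and without thinning 0.531% and 3.87%. The range shows that a few members held as much of these transcripts as other cells of the library, so the sums hide a split among members.

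That split was read with a neighbour map built from variable genes without the 6 rule genes. Of all neighbours of members (15 per cell), 260 of 810 (32.1%) were members, against 0.289% of the neighbours of other cells, while members were 0.812% of all cells. The 42 members with a member among their neighbours included all 26 at or above 2000 CPM of the rule genes. The 12 members with none had a median of 404 CPM of the rule genes and 12789.5 UMIs per cell, and 11 of them held at least 30 Camp or 30 Elane UMIs, as did 2 of the 42. This grouping was chosen after the values were seen and is a description.

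In the 42, Camp stood at 1067 CPM, Elane at 525, Gata1 at 83.4, Hdc at 163 and Arsb at 1334, and every one of them held an Arsb UMI. In the 12, Camp stood at 17755 CPM and Elane at 5468, against 18019 and 7632 CPM in the other retinoic acid cells. The 12 held 1 UMI of Gata1, 3 of Hdc and 0 of Gata2. The 12 thus held 2851 of the members' 3107 Camp UMIs. Their rule UMIs numbered 2 to 13 per cell with a median of 6, against a median of 16 in the 42. Whether the 12 are doublets or hold rule UMIs from free RNA was not tested, and they are counted as members in all values for the 54. With the 42 alone, an alternative added after the data were seen, the summed maturation list was −3.75 in place of −0.88, the primary granule list −2.24 in place of −1.29, Elane −3.86, Hdc 6.96 and Gata1 6.51. Depth moved with this split, with medians of 12789.5 UMIs in the 12 and 4147.5 in the 42, and its part was not tested.

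**Figure D4:**
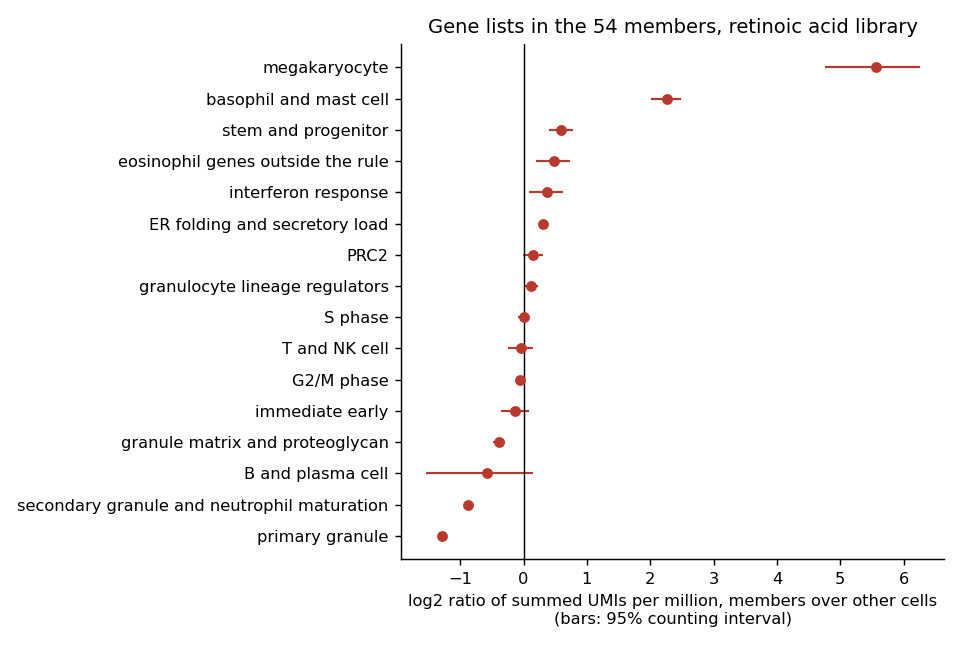
Log2 ratio of the summed UMIs of each gene list, 54 members over the other retinoic acid cells, with 95% counting intervals. Lists with at least 10 UMIs in members are drawn; the granule lists lie below 0, at −1.29 and −0.88, and the megakaryocyte and basophil and mast cell lists lie furthest above it, at 5.57 and 2.26.

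Markers of other cell types were read beside these results. The basophil and mast cell list had 157 UMIs in members, at 392 CPM against 82.2 (log2 ratio 2.26, 2.02 to 2.48), and ran from 0 to 10272 CPM in single members with UMIs in 37 of them. Most of these UMIs belonged to Cyp11a1 (65), Hdc (42) and Gata2 (14). Mcpt8, a basophil protease gene, had 27 UMIs and a log2 ratio of 0.12 (−0.51 to 0.64), while Cpa3 had 3 UMIs against 8 in all other cells (6.74, 4.05 to 8.66) and Il4 had 4 against 11 (6.66, 4.45 to 8.31). The other defining genes Prss34, Fcer1a, Tpsb2, Tpsab1, Mcpt4, Cd200r3 and Il6 were at 0. The list shares Hdc and Cyp11a1 with the 12 largest ratios, and its part in those results was not tested. The megakaryocyte list rested on Itga2b, the integrin αIIb gene, which had 18 UMIs in 14 members against 35 in all other cells (7.08, 6.15 to 7.92), with Pf4 at 1 UMI and 4 of the 6 genes at 0.

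Monocyte genes had 4 UMIs in all, with 10 of 12 at 0 (Csf1r among them), and dendritic cell genes had 0 UMIs over 9 genes. Of the B cell genes 7 of 10 were at 0 and of the erythroid genes 7 of 9, the latter with 3 UMIs in all. In the T and NK list only Nkg7 was found, at 557 CPM against 573, and 8 of 9 genes were at 0. The stem and progenitor list stood at 0.59 (0.40 to 0.77), with Myb, a factor of proliferating progenitors, at 390 CPM against 157 (1.32, 1.08 to 1.54) and 1 Cd34 UMI. Among the sorted antigens Kit had 10 UMIs (0.63, −0.50 to 1.44), Ptprc stood at 190 CPM against 104, Ly6c2 at 4028 against 4301 and Ly6g at 182 against 277, and the receptor genes Fcgr3 and Fcgr2b stood at 0.10 and 0.15.

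Genes of the secretory pathway and of the cell cycle set the members less apart. Of 19 endoplasmic reticulum genes at 20 CPM, 0 were 2-fold higher or lower, and the summed list stood at 0.30 (0.25 to 0.35), with the chaperones Canx at 0.89 and Hsp90b1 at 0.85. The S phase list stood at 0.01 (−0.08 to 0.09), with 2 of 35 genes at least 2-fold lower and 0 higher, and its sign depended on the setting. It was 0.30 with at least 3 rule genes and 0.22 within the same phase, but −0.26 at 600 CPM and −0.32 in the 42 members with member neighbours. The G2/M list stood at −0.06 (2 of 46 lower, 1 higher) and turned positive under 3 alternatives. The shares over all genes were 2.71% lower and 9.79% higher. At 5000 UMIs 14 of 26 members were called G2/M (53.8%, 33.4 to 73.4), 3 S and 9 G1, against 48.6%, 25.3% and 26.1% of the others. The intervals of the 3 differences include 0, which at 26 cells does not show that the groups are alike. In the 13 of these cells that reached 600 CPM the S difference was −25.3 percentage points (−26.4 to −2.46). That interval leaves out 0, while the intervals of the other phase alternatives include it. Cells of 1 library are not replicates, so this value is a description only. Cells of all 54 without thinning gave 24, 10 and 20.

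Ezh2, the PRC2 methyltransferase that the study is about, had 52 UMIs in 23 members, at 130 CPM against 95.1 (0.46, 0.03 to 0.84), and the PRC2 list stood at 0.15 (−0.01 to 0.30). Zbtb16 had 1 UMI and Rara 0 in members, and neither was at 20 CPM in the other cells. Of the transcripts that track RNA quality, Gm42418, which overlaps ribosomal RNA sequence, stood at 4000 CPM in members and 829 in the others (2.27, 2.20 to 2.34), and the nuclear RNA Malat1 at 4397 against 2422. Both moved with the rule, and their part in the other ratios was not tested.

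In the vehicle library the rule-positive cells carried more of most of the same named genes than the other vehicle cells. There 163 of 5517 genes (2.95%) were at least 2-fold higher and 124 (2.25%) at least 2-fold lower, with the interval wholly past 2-fold for 93 (1.69%) and 28 (0.508%). Of the 12 genes with the largest ratios in members, 10 were at least 2-fold higher in vehicle rule-positive cells too, with Ctsh at 3.20, Gata1 at 2.73 and Hdc at 2.05. The exceptions were Oaf at 0.33 and Tcf7 at −0.40. Of the 12 with the smallest, 12 were lower and 7 at least 2-fold lower there, with Elane at −2.44.

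The 2 libraries differed in how far the other cells carried these genes. Between libraries, Hdc stood at 105 CPM in retinoic acid and 261 CPM in vehicle rule-positive cells (log2 −1.30, −1.81 to −0.86), and at 1.32 and 63.2 CPM in the other cells (−5.58, −5.84 to −5.34). Gata1 stood at 52.4 and 71.4 CPM in rule-positive cells (−0.42, −1.19 to 0.23) and at 0.934 and 10.8 CPM in the others (−3.52, −3.84 to −3.22). The same order held for Ikzf2 (−1.15 and −4.84), Stx3 (−0.26 and −3.65), Ldhc (−1.36 and −4.04) and Itga2b (−0.997 and −6.34). Among the 12 genes with the largest ratios the value was further below 0 in the other cells for 11, Ctsh (−1.05 and −0.89) being the exception. These 12 were chosen because the other retinoic acid cells hold little of them, which favours that order.

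**Figure D5:**
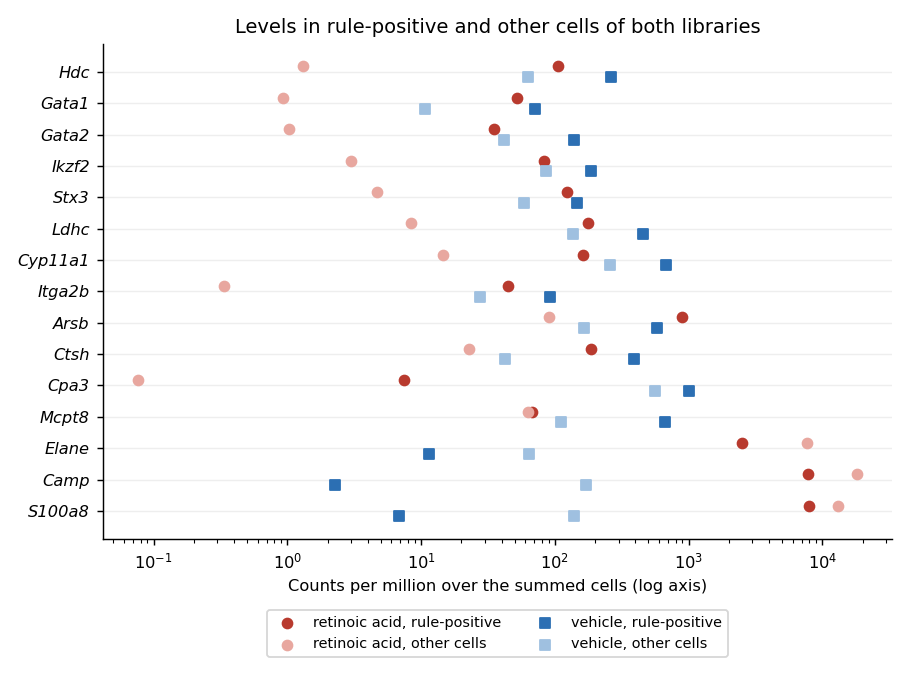
Levels in CPM (log axis) of 15 genes in rule-positive cells (dark) and other cells (light) of the retinoic acid library (circles) and the vehicle library (squares). For Hdc, Gata1 and Stx3 the 2 dark symbols lie closer together than the 2 light ones, while Elane, Camp and S100a8 lie further right in both groups of the retinoic acid library.

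Over all genes, rule-positive cells of the retinoic acid library had 779 of 5906 genes (13.2%) at least 2-fold higher and 345 (5.84%) at least 2-fold lower than those of the vehicle library, and 430 higher and 551 lower after centring on the median ratio of 0.25. The interval lay wholly past 2-fold for 89 (1.51%) of the higher and 94 (1.59%) of the lower genes. The lean toward higher genes therefore depended on the scaling. In the other cells 169 of 5566 genes (3.04%) were higher and 274 (4.92%) lower. Of the 251 genes wholly past 2-fold lower there (4.51%), 226 reached 20 CPM in rule-positive cells and 131 of them (58.0%) were at least 2-fold lower, with a median of −1.15 against −1.68. Of the 147 wholly past 2-fold higher (2.64%), 124 were read and 85 (68.5%) were at least 2-fold higher, with a median of 1.56 against 1.43. Neutrophil granule genes were among the latter: Elane had log2 7.74 in rule-positive and 6.91 in other cells, and Camp, with 4 UMIs in vehicle rule-positive cells, 11.56 (10.37 to 13.61) and 6.73. The rule-positive values of both genes rest largely on the 12 members without a member neighbour. Those 12 held 878 Elane and 2851 Camp UMIs, and the other 42 held 126 and 256. Elane stood at 525 CPM in the 42, against 11.4 CPM in vehicle rule-positive cells. Cpa3, the mast cell carboxypeptidase gene, had 3 UMIs in members against 1013 CPM in vehicle rule-positive cells (−6.86, −9.36 to −5.53). In the other cells it stood at 0.077 CPM in the retinoic acid and 564 CPM in the vehicle library. Mcpt8 stood at −3.28 in rule-positive and −0.82 in other cells.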

How the data were processed

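Single-cell RNA was measured in 1 retinoic acid and 1 vehicle library of sorted PLZF/RARA promyelocytes, captured with 10x Genomics 3′ v2 chemistry per the labels' protocols. The authors deposited UMI counts for each gene in each cell, without normalisation, and the submitters' processing notes name Cell Ranger 4.0.0 and the builds mm10 and GRCm38.p4. How cells were told from empty droplets is not given in the sources used here. Both matrices list 32285 gene identifiers, of which 32158 matched GENCODE M21, the source of the gene coordinates (GRCm38).

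Kept cells had at least 1000 UMIs, at least 500 genes and 0.1 to 10% mitochondrial UMIs. Counts were summed over rule-positive and over other cells, expressed in CPM and compared as log2 ratios with 0.5 counts added. Genes with at least 20 CPM in either sum were counted at 2-fold, without the 6 rule genes. Ratios carry exact binomial intervals conditional on the summed counts, sums Poisson and shares Clopper-Pearson intervals, all at 95%. Differences between phase shares carry limits combined from the Wilson score intervals of both shares. List medians were taken over genes with at least 10 counts, with a median of 0.38 over all such genes. Where stated, each cell was thinned to 5000 or 2000 UMIs. Neighbours were the 15 nearest cells in 30 principal components of 2000 variable genes, after scaling to 10000 counts per cell and without the rule genes, and phases came from scanpy's cell cycle scoring. The tools were python 3.11.15, numpy 2.4.6, scipy 1.17.1, pandas 2.3.3, scanpy 1.11.5, scikit-learn 1.9.0 and matplotlib 3.10.9. The ratio calculation was tested on simulated data.

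Named genes were the rule genes, list genes at 20 CPM or more, the 12 largest and 12 smallest ratios at 50 CPM or more, the sorted antigens, Ezh2, Zbtb16 and Rara. List genes below 20 CPM, Gm42418 and Malat1 are named outside that rule, after their values were seen. The members and the gene lists (316 symbols, 2 without a row) were chosen with earlier results of these data known. Lists not described in the report stood at −0.38 (granule matrix and proteoglycan), −0.13 (immediate early) and 0.37 (interferon response) for the summed log2 ratio. Alternatives changed the rule, the limits on cells and genes, the depth, the scaling, the weight of cells and the neighbour map.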

Additional observations from a re-analysis of the deposited data

Results flagged for a closer look

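Of 173 named genes that reached 20 CPM in at least 1 of the sums of each library, 16 pointed one way in the retinoic acid library and the other way in the vehicle library when rule-positive cells were set against other cells, with both counting intervals away from 0. These differences between libraries were not tested, and each library is 1 sample. The share of opposite directions over all genes was not counted, so 16 of 173 is a description only. Ratios were not centred here, although the median over genes at 20 CPM was 0.14 in the retinoic acid and −0.09 in the vehicle library.

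Genes higher in members but lower in vehicle rule-positive cells were Tcf7, a factor of the Wnt pathway (log2 ratio 2.90 against −0.40), the methyltransferase gene Ezh2 (0.46 against −0.43) and 5 cell cycle genes. The 5 were Rrm1 (0.60 against −0.51), Anp32e (0.47 against −0.21), Tmpo (0.39 against −0.34), Cks1b (0.36 against −0.22) and Hmgb2 (0.27 against −0.18). The lower limits of Ezh2 (0.027), Tmpo (0.025) and Cks1b (0.052) lay below the retinoic acid median of 0.14. In the vehicle library the upper limits of Tcf7 (−0.077) and Anp32e (−0.041) lay above the median of −0.09. Rrm1 and Hmgb2 had both limits past these medians. The genes named next lie past both medians through their selection, so that comparison says nothing about them.

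Genes lower in members but higher in vehicle rule-positive cells included the Gr1 antigen genes Ly6g (−0.59 against 2.26) and Ly6c2 (−0.094 against 0.71). The regulators Spi1 (−0.997 against 0.32), Id1 (−0.86 against 0.46), Id2 (−0.63 against 0.98) and Cebpb (−0.32 against 0.46) did the same. So did the granule genes Pglyrp1 (−0.52 against 0.39) and Srgn (−0.33 against 0.92) and the secretory pathway gene Ssr4 (−0.31 against 0.27). Of these genes, Ly6g is the one with the widest gap between the libraries after Tcf7.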

How the results depend on the processing

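Of 107 recomputed values that answer a comparison, 48 moved by less than their counting error (counts by less than 1.5 times) and 59 moved more. Over all 495 recomputed values, gene lists and named genes included, 343 stayed that close, and 4 whose reported interval lay away from 0 changed sign. No paired analysis was possible because a single library stood on either side. Depth limits the rule: 2 UMIs can pass it in a shallow cell. Thinning to 2000 UMIs, the counting interval wholly past 2-fold, the members with a member neighbour and the omission of the member with most rule UMIs were added after the data were seen. The causes of these shifts were not tested.

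The share of rule-positive cells in the retinoic acid library was 0.602% at 600 CPM, 0.511% with at least 3 rule genes, 0.416% among cells with at least 5000 UMIs, 0.384% thinned to 5000 UMIs and 0.366% thinned to 2000. In the vehicle library it was 2.10% with at least 3 rule genes, 2.83% with only Prg2, Prg3 and Epx, 2.39% among cells with at least 5000 UMIs, 2.06% thinned to 5000 and 2.01% thinned to 2000.

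Genes at least 2-fold higher and lower in members numbered 1124 and 390 at 600 CPM, 931 and 322 with 3 rule genes, 1189 and 444 at 5 CPM, 76 and 27 at 100 CPM, 1242 and 425 with equal weight for every cell, 102 and 10 with the interval wholly past 2-fold, and 1157 and 419 in members with a member neighbour. With only Prg2, Prg3 and Epx 245 were lower. Between rule-positive cells of both libraries, centring on the median gave 430 higher and 551 lower.

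The summed eosinophil list outside the rule was 0.80 at 600 CPM, 0.76 with equal weight and 0.79 in members with a member neighbour. The primary granule list was −2.07 at 600 CPM, −1.64 with 3 rule genes (unrounded −1.635), −1.20 with only Prg2, Prg3 and Epx, −1.10 at 5000 UMIs, −1.22 without the deepest 5% of cells, −1.44 median-centred, −1.69 with equal weight and −2.24 in members with a member neighbour. The maturation list was, in the same order, −3.73, −1.21, −1.10, −0.73, −1.13, −1.03, −1.57 and −3.75, and it was −1.05 within the same phase and −0.84 without the member with most rule UMIs. The basophil and mast cell list was 2.82 at 600 CPM, 2.55 with 3 rule genes, 2.02 at 5000 UMIs, 2.96 with equal weight, 2.82 in members with a member neighbour and 1.98 without the member with most rule UMIs.

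The share of S calls differed by −25.3 percentage points (−26.4 to −2.46) in the 13 members read at 600 CPM, and the median maturation share by −3.46 points without the deepest cells. The share of member neighbours was 37.8% with 15 components, 27.3% with 30 neighbours and 38.1% without the cell cycle and maturation lists. The G2/M list changed sign to 0.024 at 600 CPM, 0.049 with equal weight and 0.022 within the same phase, and the regulator list to −0.024 when median-centred.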
